A study of Mus musculus with 24 samples.

Results

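Genes of protein folding, quality control and secretion in the endoplasmic reticulum (ER) were followed across ID8 p53-/- mouse ovarian cancer cells grown attached or in suspension. The module holds 38 named genes, found by symbol among the 31062 features counted in every library, and all 38 passed the filter on low counts among 14622 genes tested. ID8 is an established line from mouse ovarian surface epithelium, here lacking p53 in every group. It came as an Ifngr1-KO line, in which the receptor for interferon gamma (IFN-gamma) was targeted, and as an sgNTC line with a non-targeting guide. Cells of each line grew for 48 hours in regular adherent plates or in ultra-low attachment (ULA) plates, and the final 24 hours were with PBS or with 100 ng/ml of IFN-gamma. The 8 groups of genotype, culture and treatment hold 3 libraries each, which the labels call biological replicates without saying how the cultures were separated, so p-values measure the spread between these libraries. The labels give 1 line for each genotype and do not say whether it is a clone, so the knockout and other differences between the lines cannot be told apart. In the ULA wells alone, dead cells were taken out before extraction, so detachment and that step cannot be told apart either.

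Libraries held 33494774 to 63154942 counts. Ifngr1 itself was at 31.7 to 48.1 CPM (median 39.8, 12 libraries) with the sgNTC guide and at 13.3 to 16.98 CPM (median 14.6, 12 libraries) in Ifngr1-KO, so the lines did not overlap. CPM are counts scaled to a common depth by the composition-adjusted library size. Of 10 markers of ovarian surface epithelium and mesothelium, Krt8, Krt18, Krt19, Wt1, Msln and Lgals7 were read at over 10 CPM in every group, whereas Krt7, Gpc3 and Bnc1 stayed under 1 CPM and Upk3b under 10 CPM. Of 7 leukocyte and 5 plasma cell markers Ptprc, Adgre1, Lyz2, Cd3e, Cd79a, Jchain, Mzb1, Tnfrsf17 and Irf4 stayed under 1 CPM in every group, whereas Cd14, Cd68 and Sdc1 were above it. Library 3 of the adherent Ifngr1-KO PBS group and library 2 of the ULA Ifngr1-KO IFN-gamma group differed more from their replicates than the other libraries did, and counts that they change are also given without both. Of the members 12 overlap another gene on the genome (Dnajb11, Pdia3, Pdia6, Txndc5, Txndc11, Manf, Herpud1, Syvn1, Derl2, Sec61a1, Spcs2 and Spcs3), and as the counting ignored strand their reads are less certain.

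The ER is where secreted and membrane proteins are threaded in through the Sec61 channel, trimmed, folded by chaperones and disulfide isomerases, and passed on in COPII vesicles. When unfolded proteins build up, the chaperone Hspa5 (BiP) releases the sensors Ern1 (IRE1), Atf6 and Eif2ak3 (PERK), which together make up the unfolded protein response. Ern1 splices the messenger of Xbp1, Atf6 is cut to free a transcription factor, and Eif2ak3 slows translation while favouring Atf4. Xbp1 and Atf6 raise chaperone and degradation genes through short promoter elements known as ER stress response elements (ERSE). Gene counts read the total messenger and show neither Xbp1 splicing nor Atf6 cleavage.

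RefSeq promoter windows of GRCm38.p6, which run from 250 bases before to 50 after the start of transcription, were matched by symbol for 30 of the 38 members and searched on both strands. The 30 members have 35 windows in all. An ERSE (CCAAT and CCACG with 9 bases of any kind between them) lay in the windows of 8 members. That was 22.9% of member windows, against 0.119% of all 32851 windows in the table. The related ERSE-II (ATTGG and CCACG with 1 base between) lay in 2 members, which was 5.71% of member windows against 0.0365% of all windows. Together these 10 members are 33.3% of those with a window, and either element lay in 0.155% of all windows. As the members were listed as genes of this response, an excess of its elements could be foreseen and is no result of these libraries. Sdf2l1 fell further in suspension than Hspa5 in both lines, but its window holds neither element. The 250 bases before the start are shown for Hspa5, Creld2 and Herpud1, which fell furthest among the 10 members that hold an element. Capitals mark the fixed letters of the element, and each reads 5′ to 3′ on the gene's strand. They lie at chr2:34771840-34772089 (plus strand), chr15:88819396-88819645 (plus strand) and chr8:94386179-94386428 (plus strand).
Hspa5: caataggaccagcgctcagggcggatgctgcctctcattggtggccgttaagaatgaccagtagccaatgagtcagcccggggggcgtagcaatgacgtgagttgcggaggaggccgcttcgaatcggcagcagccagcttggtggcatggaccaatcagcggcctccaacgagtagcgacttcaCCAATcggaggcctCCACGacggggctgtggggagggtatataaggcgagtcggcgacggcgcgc
Creld2: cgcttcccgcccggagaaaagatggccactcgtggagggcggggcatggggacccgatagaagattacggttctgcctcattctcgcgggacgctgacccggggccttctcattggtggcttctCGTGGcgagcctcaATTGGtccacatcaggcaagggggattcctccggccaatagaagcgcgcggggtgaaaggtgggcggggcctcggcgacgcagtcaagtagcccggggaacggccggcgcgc
Herpud1: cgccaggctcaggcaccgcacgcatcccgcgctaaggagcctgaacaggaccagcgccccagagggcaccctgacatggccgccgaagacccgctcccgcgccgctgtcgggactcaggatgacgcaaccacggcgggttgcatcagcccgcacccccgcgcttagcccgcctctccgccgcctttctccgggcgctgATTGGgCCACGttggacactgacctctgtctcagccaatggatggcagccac
The Hspa5 element ran 65 to 47 bases upstream of the start, and that of Creld2, which reads on the other strand, ran 126 to 108 bases upstream. The ERSE-II of Herpud1 ran 52 to 42 bases upstream. That of Dnajb11 ran 7 to 17 bases after the start, whereas every other ERSE or ERSE-II lay upstream. The elements of the other members that hold one are shown alone for comparison of the spacer, again with the fixed letters in capitals and as read on the gene's strand.
Calr: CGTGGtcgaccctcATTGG
Canx: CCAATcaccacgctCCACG
Dnajc3: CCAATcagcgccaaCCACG
Pdia6: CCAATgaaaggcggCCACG
Syvn1: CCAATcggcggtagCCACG
Dnajb11: ATTGGcCCACG
Hsp90b1, upstream: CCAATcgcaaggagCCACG
Hsp90b1, nearer the start: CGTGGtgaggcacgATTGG
The letters TGACGTGG, the core of the UPR element, were in 3 members (Sec24d, Txndc5 and Txndc11) and 0.676% of all windows. TTGCATCA, the core of an ATF4 element, was in Herpud1 alone and in 0.895% of windows, and the gamma-activated sequence TTCNNNGAA in Sec23b alone and in 8.3% of windows. No matches of different motifs overlapped in these windows. A match describes letters in the window and is not evidence of binding.

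In suspension every one of the 38 members fell, in both lines. In the PBS libraries of sgNTC cells 38 of 38 were called lower (adjusted p under 0.05, edgeR quasi-likelihood test), against 32.1% of all genes tested, and 29 fell more than 2-fold. In the Ifngr1-KO line 38 of 38 were again called lower, against 31.1% of all genes, and 26 fell more than 2-fold. Both shares of all genes cover calls of any size, of which falls over 2-fold are a part. The median log2 fold change of the members was -1.34 in sgNTC and -1.25 in Ifngr1-KO cells, where the median of all genes was 0.031 and -0.004. For each member the 3 ULA libraries lay below the 3 adherent ones in both lines, as they did for 34.6% of all genes tested in sgNTC and 32.4% in Ifngr1-KO cells. In sgNTC cells 31 members ranked among the lowest 10% of tested genes by fold change, and in Ifngr1-KO cells 29 did.

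Summed over the 38 genes, sgNTC cells gave 41785 ± 845 CPM (SD, n = 3) attached and 9332 ± 126 CPM (SD, n = 3) in suspension. Ifngr1-KO cells gave 42889 ± 1152 CPM (SD, n = 3) attached and 12641 ± 283 CPM (SD, n = 3) in suspension. As a share of all counts the members took 3.97% to 4.40% of the 12 adherent libraries, 1.25% to 1.32% of the 6 ULA Ifngr1-KO libraries and 0.928% to 0.966% of the 6 ULA sgNTC libraries. These are shares of bulk RNA, in which fewer cells making a messenger and less of it per cell cannot be told apart. Mitochondrially encoded genes moved the other way, from 1.96% to 2.94% of counts in adherent libraries to 3.31% to 3.87% in ULA Ifngr1-KO and 5.09% to 6.12% in ULA sgNTC libraries, and their part in the fall was not tested. Of the 5 fibroblast and pericyte markers Dcn was called higher in suspension, and the list summed to 44.2 to 54.8 CPM attached and 96.5 to 99.1 CPM detached in sgNTC, and to 16.6 to 18.4 and 93.7 to 98.1 CPM in Ifngr1-KO libraries, with Lum at 0 and Pdgfra, Pdgfrb and Rgs5 under 1 CPM. Of 7 leukocyte markers Cd68 was called higher, with the list at 13.9 to 15.5 and 15.1 to 16.5 CPM in sgNTC and at 14.8 to 16.4 and 24.6 to 28.4 CPM in Ifngr1-KO libraries, attached and detached, while Ptprc, Adgre1, Lyz2 and Cd3e were at or near 0. The epithelial and mesothelial list summed to 2048 to 2219 CPM attached and 2844 to 2884 CPM detached in sgNTC, and to 1751 to 2070.2 and 4161 to 4326 CPM in Ifngr1-KO libraries. Of the 5 plasma cell markers Sdc1, which epithelial cells also make, was called higher in suspension in Ifngr1-KO cells (0.99 (SE 0.075, adjusted p 1.67e-12)) and not in sgNTC cells (-0.075 (SE 0.074, adjusted p 0.389)), with a called difference between the lines of 1.07 (SE 0.105, adjusted p 6.84e-09). That list summed to 209 to 224 CPM attached and 201 to 214 CPM detached in sgNTC, and to 145 to 179 and 306 to 319 CPM in Ifngr1-KO libraries, nearly all of it Sdc1. Of the 5 endothelial markers Pecam1 was called higher in both lines, and the list summed to 0.484 to 0.873 and 2.83 to 3.65 CPM in sgNTC and to 0.470 to 0.745 and 1.32 to 2.37 CPM in Ifngr1-KO libraries, with Cdh5, Kdr, Tek and Emcn under 1 CPM. The part of these markers in the fall was not tested.

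**Figure D1:**
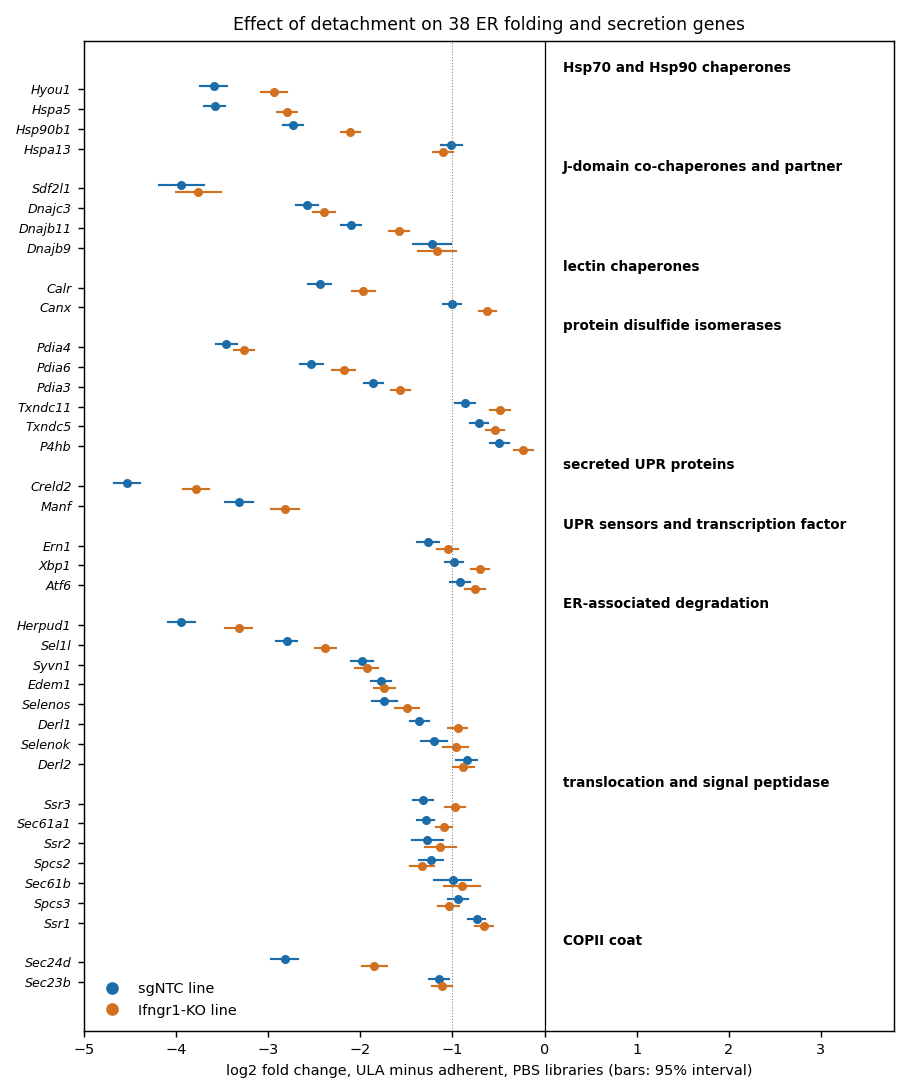
Log2 fold change of ULA against adherent culture for the 38 members, grouped by role, in PBS libraries of the sgNTC (blue) and Ifngr1-KO (orange) lines; points are fitted values, bars 95% intervals, and the dotted line marks a 2-fold fall. All points lie below 0, from -4.54 for Creld2 to -0.23 for P4hb.

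The Hsp70 and Hsp90 chaperones, which hold nascent chains until they fold, were among the steepest to fall. Hspa5 was at 9557, 9368 and 9239 CPM in adherent and 795, 769.6 and 785 CPM in ULA sgNTC libraries, and at 10010.1, 9709 and 10271 CPM in adherent and 1397, 1403 and 1529 CPM in ULA Ifngr1-KO libraries. Hspa5 (Ensembl ENSMUSG00000026864, chr2:34771970-34777547 on GRCm38) thus fell 11.99-fold in sgNTC and 6.93-fold in Ifngr1-KO cells, and the log2 fold change was -3.58 (SE 0.056, adjusted p 8.32e-33) in sgNTC and -2.79 (SE 0.054, adjusted p 4.81e-30) in Ifngr1-KO cells. Hsp90b1 was at 6234, 6487 and 6324 CPM in adherent and 933, 982 and 958 CPM in ULA sgNTC libraries, and at 5343, 5087 and 4758 CPM in adherent and 1154, 1166 and 1204 CPM in ULA Ifngr1-KO libraries. Hsp90b1 (GRP94, chr10:86690209-86705509), the ER member of the Hsp90 family, fell by less than Hspa5, and the log2 fold change was -2.73 (SE 0.052, adjusted p 1.96e-30) in sgNTC and -2.11 (SE 0.051, adjusted p 2.29e-27) in Ifngr1-KO cells. Hyou1 was at 1953, 1936 and 2074 CPM in adherent and 166, 166 and 162 CPM in ULA sgNTC libraries, and at 2199, 2239 and 2004 CPM in adherent and 269.8, 268 and 301 CPM in ULA Ifngr1-KO libraries. Hyou1 (GRP170), which helps Hspa5 exchange its nucleotide, fell by nearly the same factor as Hspa5 in sgNTC cells, and the log2 fold change was -3.60 (SE 0.071, adjusted p 3.91e-29) in sgNTC and -2.94 (SE 0.069, adjusted p 7.37e-27) in Ifngr1-KO cells. Hspa13 was at 123, 118 and 117 CPM in adherent and 59.4, 61.1 and 56.8 CPM in ULA sgNTC libraries, and at 175, 178 and 171 CPM in adherent and 83.5, 79.6 and 80.7 CPM in ULA Ifngr1-KO libraries. Hspa13, an Hsp70-like protein of microsomes, changed least of these 4 genes, and the log2 fold change was -1.01 (SE 0.055, adjusted p 9.34e-18) in sgNTC and -1.10 (SE 0.055, adjusted p 1.07e-18) in Ifngr1-KO cells.

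The J-domain proteins steer Hspa5 to its clients. Sdf2l1 was at 272, 315 and 293 CPM in adherent and 20.7, 17.9 and 18.5 CPM in ULA sgNTC libraries, and at 343, 338 and 413 CPM in adherent and 24, 26.5 and 30.2 CPM in ULA Ifngr1-KO libraries. Sdf2l1, a partner of Dnajb11 in the chaperone complex, showed a steeper fall than the J-domain genes themselves with no overlap between cultures, and the log2 fold change was -3.94 (SE 0.118, adjusted p 1.41e-17) in sgNTC and -3.76 (SE 0.117, adjusted p 3.74e-17) in Ifngr1-KO cells. Among those, Dnajc3 (p58IPK) changed by -2.58 and -2.39 on the log2 scale in sgNTC and Ifngr1-KO cells, Dnajb11 (ERdj3) by -2.11 and -1.58, and Dnajb9 (ERdj4) by -1.22 and -1.16. Of the lectin chaperones, which hold sugar-bearing chains, the soluble Calr changed by -2.44 and -1.97 and its membrane-bound relative Canx by -1.004 and -0.62.

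Disulfide isomerases form and reshuffle disulfide bonds, and the 6 members spread from -3.46 to -0.49 on the log2 scale in sgNTC cells. Pdia4 was at 1781, 1924 and 1790.4 CPM in adherent and 173, 164 and 164 CPM in ULA sgNTC libraries, and at 2158, 2058 and 1893 CPM in adherent and 206, 212 and 219 CPM in ULA Ifngr1-KO libraries. Pdia4 (ERp72) fell 10.97-fold and 9.59-fold, and the log2 fold change was -3.46 (SE 0.055, adjusted p 8.32e-33) in sgNTC and -3.26 (SE 0.054, adjusted p 1.29e-31) in Ifngr1-KO cells. P4hb was at 2250.4, 2457 and 2263 CPM in adherent and 1540.2, 1745 and 1673 CPM in ULA sgNTC libraries, and at 2555, 2595 and 2553 CPM in adherent and 2172, 2172 and 2228 CPM in ULA Ifngr1-KO libraries. P4hb, the founding disulfide isomerase and also a subunit of collagen prolyl hydroxylase, showed the smallest change of the 38 in both lines, and the log2 fold change was -0.49 (SE 0.051, adjusted p 1.97e-10) in sgNTC and -0.23 (SE 0.051, adjusted p 2.02e-04) in Ifngr1-KO cells. Between these lay Pdia6 (-2.53 in sgNTC and -2.18 in Ifngr1-KO cells) and Pdia3, the partner of the lectin chaperones (-1.86 and -1.57). Txndc11 (-0.87 and -0.48) and Txndc5 (-0.71 and -0.54) fell less than 2-fold in both lines.

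Creld2 and Manf, ER proteins that stressed cells can secrete, gave the largest median of any role (-3.93 in sgNTC cells). Creld2 was at 654, 732 and 659 CPM in adherent and 28.7, 27.6 and 32.1 CPM in ULA sgNTC libraries, and at 787, 757 and 753 CPM in adherent and 54.4, 55.96 and 56 CPM in ULA Ifngr1-KO libraries. Creld2 (chr15:88819646-88826683) fell 23.2-fold and 13.8-fold, the largest fall of the 38 in both lines, and the log2 fold change was -4.54 (SE 0.071, adjusted p 8.32e-33) in sgNTC and -3.79 (SE 0.068, adjusted p 9.26e-31) in Ifngr1-KO cells. Manf changed by -3.32 and -2.82 and overlaps Dcaf1 and Rbm15b.

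The sensors and the transcription factor of the response fell by smaller factors, with a median of -0.98 against -3.16 for the Hsp70 and Hsp90 group in sgNTC cells. Ern1 was at 274, 249 and 279 CPM in adherent and 115, 109.7 and 109 CPM in ULA sgNTC libraries, and at 226, 221 and 213 CPM in adherent and 108, 104 and 107 CPM in ULA Ifngr1-KO libraries. Ern1, the kinase and nuclease that splices Xbp1, showed no overlap between cultures, and the log2 fold change was -1.26 (SE 0.057, adjusted p 5.01e-20) in sgNTC and -1.05 (SE 0.057, adjusted p 1.24e-17) in Ifngr1-KO cells. Atf6 was at 645, 609 and 626 CPM in adherent and 323, 337 and 334 CPM in ULA sgNTC libraries, and at 489, 502 and 428 CPM in adherent and 284, 276 and 280.1 CPM in ULA Ifngr1-KO libraries. Atf6, the membrane-bound factor freed by cleavage, was lower in each ULA library, and the log2 fold change was -0.92 (SE 0.052, adjusted p 3.50e-17) in sgNTC and -0.76 (SE 0.052, adjusted p 9.79e-15) in Ifngr1-KO cells. Xbp1 was at 308, 327 and 303 CPM in adherent and 162, 154 and 159.8 CPM in ULA sgNTC libraries, and at 307, 302 and 331 CPM in adherent and 186, 191 and 201 CPM in ULA Ifngr1-KO libraries. Xbp1, whose total messenger is read here, fell 1.97-fold in sgNTC and 1.62-fold in Ifngr1-KO cells, and the log2 fold change was -0.98 (SE 0.049, adjusted p 1.06e-18) in sgNTC and -0.70 (SE 0.049, adjusted p 1.32e-14) in Ifngr1-KO cells.

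ER-associated degradation pulls misfolded proteins back to the cytosol for the proteasome, and its 8 members had medians of -1.76 and -1.62 in sgNTC and Ifngr1-KO cells. Herpud1 was at 828, 886 and 841 CPM in adherent and 48.7, 60.9 and 56.8 CPM in ULA sgNTC libraries, and at 839.6, 808 and 829.6 CPM in adherent and 81.3, 80.9 and 85.8 CPM in ULA Ifngr1-KO libraries. Herpud1 (chr8:94386438-94395377), a membrane protein that assembles the degradation complex, fell 15.4-fold and 9.99-fold, and the log2 fold change was -3.94 (SE 0.073, adjusted p 7.31e-30) in sgNTC and -3.32 (SE 0.071, adjusted p 7.34e-28) in Ifngr1-KO cells. Sel1l, the adaptor of the Syvn1 ubiquitin ligase, changed by -2.80 and -2.38, and Syvn1 (HRD1) itself by -1.98 and -1.93. Edem1, which picks out mannose-trimmed chains, changed by -1.78 and -1.74. The membrane selenoproteins Selenos (-1.74 and -1.49) and Selenok (-1.20 and -0.97) and the channel protein Derl1 (-1.36 and -0.95) fell by smaller factors. Derl2 was at 118, 116 and 128 CPM in adherent and 67.4, 63.7 and 70.1 CPM in ULA sgNTC libraries, and at 157, 162 and 172 CPM in adherent and 85.03, 88.9 and 92.2 CPM in ULA Ifngr1-KO libraries. Derl2, a relative of Derl1 that overlaps Mis12 on the other strand, fell least of the 8 in sgNTC cells, and the log2 fold change was -0.85 (SE 0.058, adjusted p 4.98e-15) in sgNTC and -0.88 (SE 0.058, adjusted p 1.84e-15) in Ifngr1-KO cells.

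The translocation genes moved as a narrow group, between -1.32 and -0.74 in sgNTC and between -1.33 and -0.66 in Ifngr1-KO cells. The channel subunits Sec61a1 and Sec61b changed by -1.29 and -0.999 in sgNTC cells, and the signal peptidase subunit Spcs2 by -1.23. Ssr1, Ssr2 and Ssr3 belong to the complex that aids insertion beside the channel. Ssr1 was at 311, 317 and 309 CPM in adherent and 182, 188 and 193 CPM in ULA sgNTC libraries, and at 432, 436 and 415 CPM in adherent and 275, 275 and 263 CPM in ULA Ifngr1-KO libraries. Ssr2 was at 147, 169.9 and 146 CPM in adherent and 66.3, 59.4 and 65.5 CPM in ULA sgNTC libraries, and at 196, 185 and 248 CPM in adherent and 93.4, 95.5 and 98.6 CPM in ULA Ifngr1-KO libraries. For both genes the ULA libraries lay below the adherent ones, with log2 fold changes of -0.74 (SE 0.047, adjusted p 7.45e-16) for Ssr1 and -1.27 (SE 0.081, adjusted p 5.05e-14) for Ssr2 in sgNTC cells. Spcs3 was at 283, 279 and 281 CPM in adherent and 141, 143 and 155 CPM in ULA sgNTC libraries, and at 236, 234 and 229 CPM in adherent and 116, 109 and 116 CPM in ULA Ifngr1-KO libraries. Spcs3, another signal peptidase subunit, was lower in suspension and lower in Ifngr1-KO than in sgNTC libraries of both cultures, and the log2 fold change was -0.94 (SE 0.055, adjusted p 7.07e-17) in sgNTC and -1.04 (SE 0.056, adjusted p 7.76e-18) in Ifngr1-KO cells.

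COPII vesicles carry folded cargo out of the ER, and of the 2 coat members Sec24d, a cargo adaptor, fell further than Sec23b, its scaffold partner. Sec24d was at 166, 170.2 and 169 CPM in adherent and 23.4, 25.1 and 22.8 CPM in ULA sgNTC libraries, and at 208, 204 and 204 CPM in adherent and 54.1, 57.2 and 60.1 CPM in ULA Ifngr1-KO libraries. Sec24d (chr3:123267455-123365641) fell 7.08-fold in sgNTC and 3.60-fold in Ifngr1-KO cells, and the log2 fold change was -2.82 (SE 0.071, adjusted p 2.99e-27) in sgNTC and -1.85 (SE 0.067, adjusted p 1.63e-22) in Ifngr1-KO cells. Sec23b changed by -1.15 and -1.11.

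**Figure D2:**
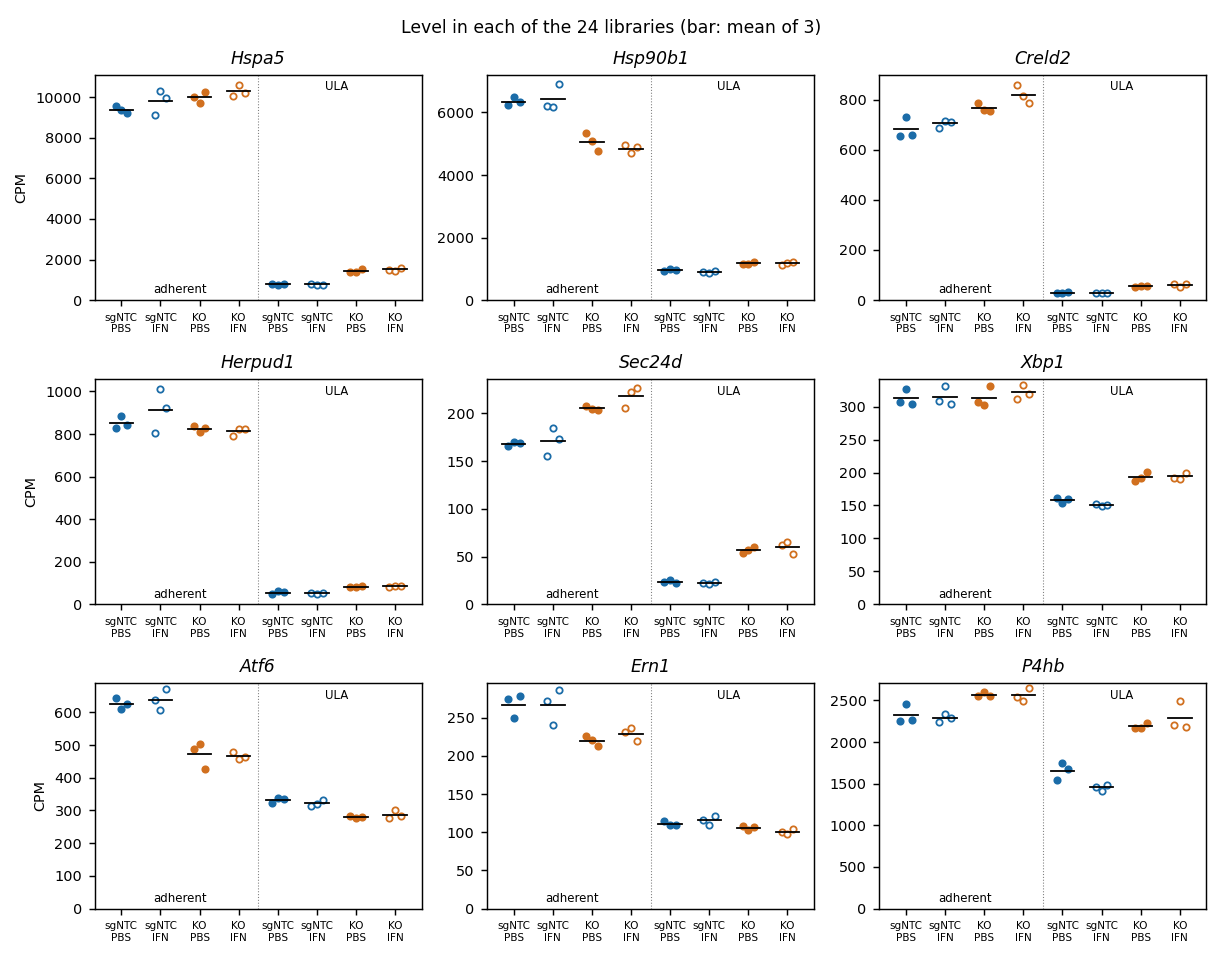
CPM in each of the 24 libraries for 9 members, on linear axes from 0; blue points are sgNTC, orange Ifngr1-KO, filled PBS, open IFN-gamma, and bars the mean of 3 libraries. Creld2 drops from 682 to 29.4 CPM in sgNTC PBS libraries, whereas P4hb goes from 2324 to 1653 CPM.

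Members with an ERSE or ERSE-II in the window had a median log2 fold change of -2.56 in sgNTC and -2.15 in Ifngr1-KO cells (10 genes). The 20 members with a window and neither element had medians of -1.23 and -1.08. The groups overlapped widely: Canx, with an ERSE, changed by -1.004 in sgNTC cells, and Sdf2l1 and Pdia4, whose windows hold neither string of letters, by -3.94 and -3.46. The split by the UPR element core went the other way. The 3 members that hold it had medians of -0.865 in sgNTC and -0.538 in Ifngr1-KO cells. Members with a window and no such core had medians of -1.776 and -1.568. These are descriptions without a test.

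Detachment also changed the order of the members by level per length (RPKM, counts per kilobase of exon and scaled to depth as CPM are). In adherent sgNTC PBS cells Hspa5 ranked highest of the 38 at 2219.9 RPKM, followed by Hsp90b1 at 1575, Calr at 1428 and P4hb at 812 RPKM. In ULA cells P4hb ranked highest at 578 RPKM, ahead of Calr at 263 and Hsp90b1 at 238, and Hspa5 came after Pdia3 at 185 RPKM. Creld2 moved from rank 7 to rank 24 and Sdf2l1 from 11 to 31, whereas Txndc11 was at 9.84 RPKM, the lowest of the 38 attached, and Sec24d at 3.76 RPKM, the lowest in suspension.

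Other genes of the same pathway, from a list of 107 tested genes that are no members, fell less uniformly. In sgNTC cells 79 were called lower and 15 higher (background 32.1% lower and 32.5% higher), with a median log2 fold change of -0.51. In Ifngr1-KO cells 73 were called lower and 16 higher (background 31.1% lower and 29.6% higher), with a median of -0.48. The steepest falls included Ppp1r15a (GADD34), which restores translation after Eif2ak3 has acted, from 375 ± 7.18 to 57.7 ± 6.41 CPM (SD, n = 3) in sgNTC cells, at log2 fold changes of -2.70 and -2.77 in the lines. Derl3, a degradation factor, went from 34.4 ± 3.25 to 0.523 ± 0.0918 CPM in sgNTC cells and was under 1 CPM in both cultures of the Ifngr1-KO line. Fkbp11, a prolyl isomerase, was at 15.3 ± 0.895 CPM attached and 2.53 ± 0.270 CPM detached in Ifngr1-KO cells, which is -2.59 (SE 0.156, adjusted p 2.27e-16) as a log2 fold change. Its mean in sgNTC cells was 7.73 CPM attached and 2.76 CPM detached. In the other direction Ero1a, the oxidase that recharges disulfide isomerases, rose from 1459 ± 80.02 to 2857 ± 609.7 CPM in sgNTC and from 1782 ± 109.9 to 4447 ± 233 CPM in Ifngr1-KO cells, with log2 fold changes of 0.97 (SE 0.209, adjusted p 5.83e-04) and 1.32 (SE 0.211, adjusted p 3.12e-05). The translocation factor Sec62 also rose in sgNTC cells, at 0.71 (SE 0.059, adjusted p 7.65e-13). In Ifngr1-KO cells its mean was 107.9 CPM attached and 154.4 CPM detached. Creb3l1 was called higher in detached than attached Ifngr1-KO cells but lay under 1 CPM in each of the 4 PBS groups.

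The fall was read again in the IFN-gamma libraries, which share no library with the PBS ones. In sgNTC cells 38 of 38 members were called lower, against 32% of all genes, with a median of -1.50. In Ifngr1-KO cells 38 of 38 were called lower, against 30.9% of all genes, with a median of -1.20. The largest gap between the PBS and IFN-gamma log2 fold changes of a member was 0.248 for Selenok in sgNTC and 0.211 for Ssr2 in Ifngr1-KO cells. Hspa5 changed by -3.67 and -2.77 in the lines, Creld2 by -4.65 and -3.75, and P4hb by -0.65 and -0.16. The P4hb call in Ifngr1-KO cells was lost without library 3 of the ULA IFN-gamma group (adjusted p 0.0531).

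Between the lines, no member differed 2-fold in attached cells of the PBS groups. In adherent Ifngr1-KO against sgNTC cells 25 of 38 members were called, against 43.9% of all genes. Of these 19 were higher (background 20.1%) and 6 lower (background 23.9%) in Ifngr1-KO cells, and the median log2 difference was 0.12. The largest differences upwards were those of Hspa13 at 0.55 (SE 0.054, adjusted p 2.70e-10), Ssr1 at 0.45 (SE 0.047, adjusted p 6.77e-10), Ssr2 at 0.45 (SE 0.079, adjusted p 3.99e-05) and Derl2 at 0.44 (SE 0.057, adjusted p 8.51e-08). Downwards they were those of Atf6 at -0.41 (SE 0.052, adjusted p 6.97e-08), Hsp90b1 at -0.33 (SE 0.049, adjusted p 1.39e-06), Ern1 at -0.28 (SE 0.056, adjusted p 9.80e-05) and Spcs3 at -0.27 (SE 0.054, adjusted p 1.24e-04). The libraries of the lines did not overlap for these 8 genes, nor for 22.5% of all genes on the higher and 27.1% on the lower side. Hspa5 was not called, with a log2 difference of 0.091 and a 95% interval from -0.012 to 0.193, and it was called under library totals (adjusted p 0.0182) and without the count filter (adjusted p 0.0467). Xbp1 was not called either, at 0.003 with an interval from -0.096 to 0.102. Without library 1 of the sgNTC group 18 members were called, losing Creld2, P4hb, Pdia4, Pdia6, Sdf2l1, Sec61b and Ssr3, and without its library 3 19, losing Creld2, P4hb, Pdia3, Pdia4, Pdia6 and Ssr3. Leaving out Ifngr1-KO library 1 lost Creld2, Pdia3, Pdia4 and Ssr3, leaving out library 2 lost P4hb and Ssr3, and leaving out library 3 lost Sdf2l1 and Sec61b and gained Selenok. Txndc11, among the 6 called lower, was not called under library totals or without the count filter. Library totals called 24 higher and 5 lower, gaining Hspa5, Hyou1, Selenos, Spcs2 and Txndc5, and no filter 21 and 5, gaining Hspa5 and Hyou1. Without both libraries that stood apart 26 were called, with Sec61b lost and Hyou1 and Selenok gained.

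In suspension the lines parted further. Of 38 members 33 were called between the ULA PBS groups, against 50.1% of all genes. Here 31 were higher in Ifngr1-KO cells (background 24.5%) and Atf6 and Spcs3 were lower (background 25.6%), with a median of 0.41 beside -0.021 for all genes. Sec24d was 2.40-fold higher, at 1.27 (SE 0.07, adjusted p 8.74e-17), Creld2 1.89-fold at 0.92 (SE 0.065, adjusted p 8.42e-14), Hspa5 1.84-fold at 0.88 (SE 0.051, adjusted p 3.44e-16) and Hyou1 1.70-fold at 0.77 (SE 0.065, adjusted p 1.11e-11). In each of these 4 genes the 3 Ifngr1-KO libraries lay above the 3 sgNTC ones, as in 29% of all genes. All members of the Hsp70 and Hsp90, J-domain, lectin, disulfide isomerase, secreted and COPII groups were called higher in Ifngr1-KO cells. Atf6 was lower at -0.24 (SE 0.052, adjusted p 2.01e-04) and Spcs3 at -0.37 (SE 0.055, adjusted p 8.48e-07), whereas Edem1, Selenok, Spcs2 and Syvn1 were not called, nor was Ern1 (-0.07, 95% interval -0.186 to 0.046). Xbp1 was higher at 0.28 (SE 0.049, adjusted p 9.66e-06). Of the 107 other pathway genes 54 were called higher and 21 lower (background 24.5% and 25.6%). Attached, 44 were called higher and 25 lower (background 20.1% and 23.9%). Kdelr3, a receptor that returns chaperones to the ER, was the furthest above at 1.72 (SE 0.135, adjusted p 8.59e-13) in suspension and 1.01 (SE 0.131, adjusted p 9.33e-08) attached. Derl3 was the furthest below in both cultures, at under 1 CPM in Ifngr1-KO cells beside the sgNTC levels given above. The other genes that the naming rule gave were Sec61g at 0.81 and Sil1 at -0.68 in suspension, and Fkbp11 at 0.99 and Tmx3 at -0.66 attached.

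**Figure D3:**
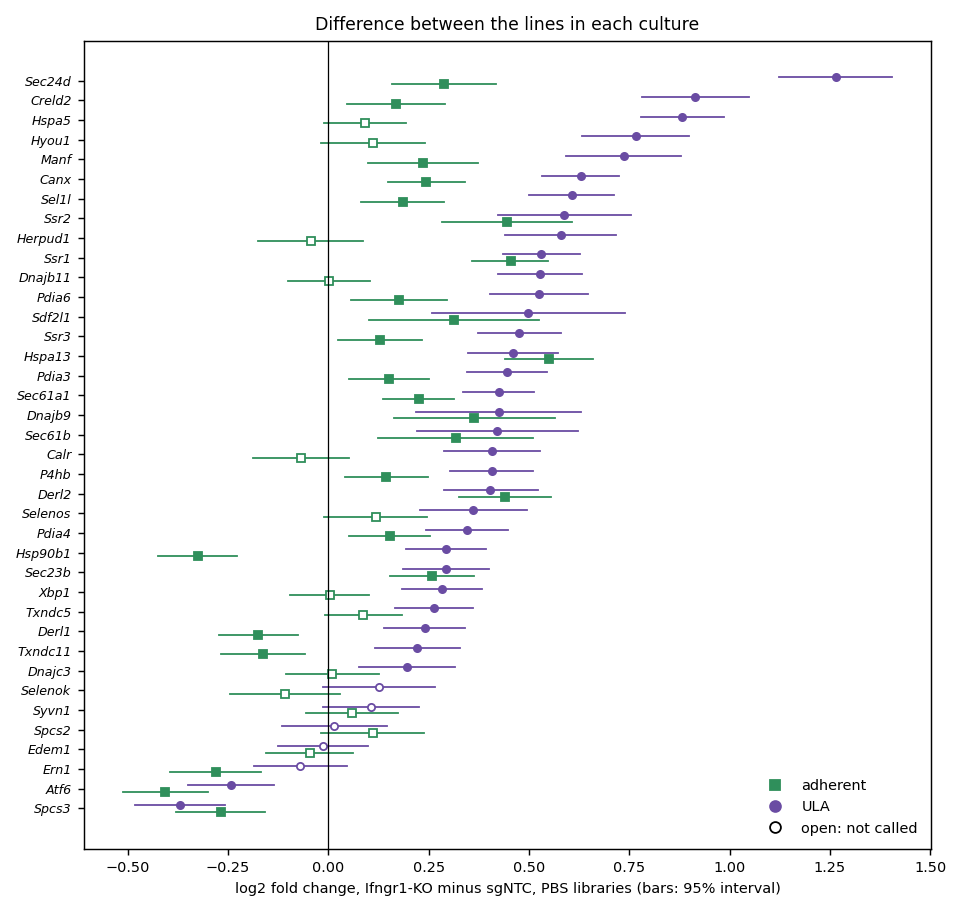
Log2 difference of Ifngr1-KO minus sgNTC for the 38 members in adherent (green squares) and ULA (purple circles) PBS libraries, ordered by the ULA value; bars are 95% intervals and open symbols were not called. The ULA values reach 1.27 for Sec24d, and the adherent ones run from -0.41 for Atf6 to 0.55 for Hspa13.

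Whether suspension acted unequally on the lines was tested directly. It was called for 23 of 38 members, each with a smaller fall in Ifngr1-KO cells, against 16.6% of all genes called in that direction and 27.8% either way. By adjusted p the leading members were Hspa5 with a log2 difference of 0.79 (SE 0.072, adjusted p 1.56e-10), Sec24d at 0.98 (SE 0.094, adjusted p 6.97e-10), Hsp90b1 at 0.62 (SE 0.07, adjusted p 1.62e-08) and Creld2 at 0.75 (SE 0.089, adjusted p 5.07e-08). Hyou1 (0.65) and Herpud1 (0.62) followed by size. The 6 disulfide isomerases, both lectin chaperones and both secreted proteins were called, whereas 2 of the 7 translocation genes were, Sec61a1 (0.20) and Ssr3 (0.35), and 1 of the 4 genes of the J-domain group, Dnajb11 (0.53). The transcription factor Xbp1 was called at 0.28 (SE 0.069, adjusted p 0.0021). Of the sensors, Ern1 was called at 0.21 (SE 0.08, adjusted p 0.0454) and Atf6 was not (0.164, adjusted p 0.0967). Sdf2l1, which fell steeply in both lines, was not called (0.18, 95% interval -0.136 to 0.505), nor were Syvn1 (0.046, interval -0.118 to 0.211) and Edem1 (0.033, interval -0.122 to 0.189). Of the other pathway genes 32 were called upwards and 5 downwards (background 16.6% upwards and 27.8% either way). Those named by size were Kdelr3 at 0.71, Fkbp11 at -1.10 and the degradation ligase Rnf5 at -0.56, besides Derl3 with its low counts.

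The IFN-gamma libraries, which that test did not use, gave the same difference for more members. It was called for 30 of 38, all with the smaller fall in Ifngr1-KO cells, against 19% of all genes called in that direction. These included 22 of the 23 members called in PBS libraries. Ern1 was the exception, at 0.017 (adjusted p 0.906). In these libraries Hspa5 was at 0.90 and Sec24d at 1.06. This test was added after the PBS values had been seen. Among the PBS libraries the Ern1 call was lost under library totals and when library 2 or 3 of the adherent Ifngr1-KO group, 1 or 3 of the adherent sgNTC group, 1, 2 or 3 of the ULA Ifngr1-KO group, or 2 or 3 of the ULA sgNTC group was left out. Txndc5, Pdia4, Selenos and Sec61a1 lost theirs under library totals too, and that setting called Spcs3 with the larger fall in Ifngr1-KO cells. Of the 12 fits with 1 library left out, Ern1 and Txndc5 each lost the call in 9, Selenos in 8 and Pdia4 in 5, and Txndc5 also lost it without the count filter, with the compared groups alone and with the replicate number as a block. Leaving out both libraries that stood apart called 23 members, with Ern1, Pdia4 and Txndc5 lost and Sdf2l1, Selenok and Ssr2 gained.

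**Figure D4:**
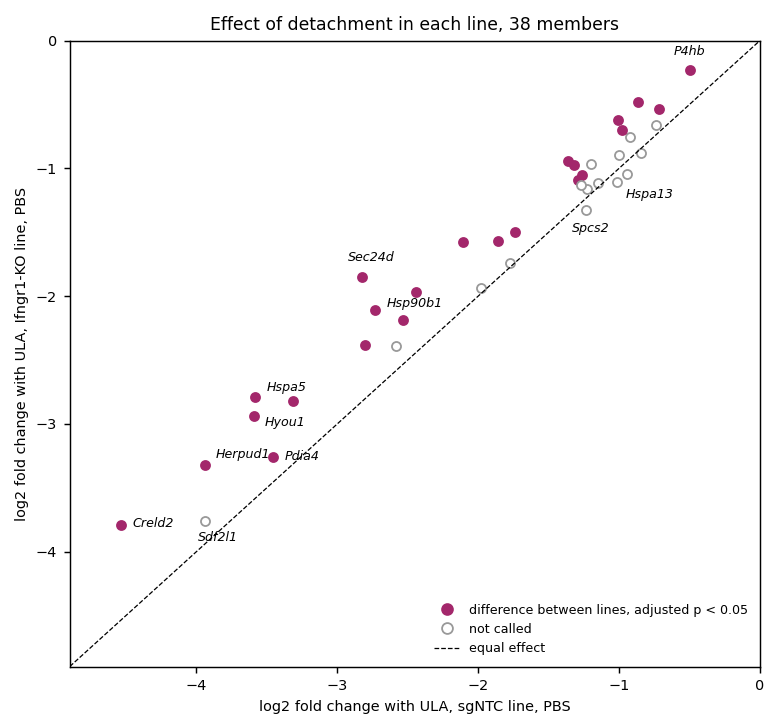
Log2 fold change with ULA culture in the Ifngr1-KO line against that in the sgNTC line for the 38 members, PBS libraries; the dashed line marks an equal effect and filled points have a called difference between the lines. The 23 filled points lie above the line, with Sec24d at -2.82 and -1.85 the farthest from it.

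IFN-gamma itself left these genes close to their PBS levels. In adherent sgNTC cells 0 of 38 members were called by edgeR, against 0.315% of all genes, and 4 had an unadjusted p under 0.05. In ULA sgNTC cells 1 of 38 was called, against 2.05% of all genes either way and 0.739% lower. In Ifngr1-KO cells 0 of 38 were called in adherent culture (0.00684% of all genes) and 0 of 38 in ULA culture (0% of all genes), with 4 and 1 members at an unadjusted p under 0.05. The shares of all genes are for adjusted p, so the counts at an unadjusted p have no background beside them. DESeq2 also called 0 members in the adherent sgNTC and both Ifngr1-KO comparisons. For all 38 members the 95% intervals lay within 0.5 of 0 on the log2 scale in each of the 4 comparisons, the widest reaching -0.423 and 0.391.

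With IFN-gamma P4hb was at 2240.3, 2331 and 2289.6 CPM in adherent and 1465, 1416 and 1482 CPM in ULA sgNTC libraries, and at 2543, 2490.3 and 2648 CPM and 2204, 2487 and 2176 CPM in the Ifngr1-KO ones. P4hb was the called member, lower with IFN-gamma in ULA sgNTC cells at -0.18 (SE 0.051, adjusted p 0.0482), where the 3 IFN-gamma libraries lay below the 3 PBS ones. The call was lost with median-ratio size factors, with the compared groups fitted alone, and without library 1, 2 or 3 of the IFN-gamma group or library 2 or 3 of the PBS group. Adjusted p then ran from 0.0579 to 0.347. The effect of IFN-gamma on P4hb in Ifngr1-KO minus sgNTC ULA cells was 0.25 (adjusted p 0.071).

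The other members with values in every library are given here under IFN-gamma, for comparison with their PBS levels above. Over all genes tested the IFN-gamma and PBS libraries did not overlap for 13.1% in adherent sgNTC, 20.2% in ULA sgNTC, 12.9% in adherent Ifngr1-KO and 12.3% in ULA Ifngr1-KO cells. Hspa5 was at 9108, 10309.5 and 9979.8 CPM (adherent) and 810.4, 752 and 756 CPM (ULA) in sgNTC, and at 10082, 10626 and 10221 CPM (adherent) and 1499, 1433 and 1605 CPM (ULA) in Ifngr1-KO libraries. Hsp90b1 was at 6211, 6169 and 6909 CPM (adherent) and 894, 866 and 933 CPM (ULA) in sgNTC, and at 4966, 4689 and 4881 CPM (adherent) and 1139, 1183 and 1207 CPM (ULA) in Ifngr1-KO libraries. Hspa5 overlapped PBS in each of the 4 pairs of groups, whereas Hsp90b1 lay apart from PBS in ULA sgNTC cells (-0.094, adjusted p 0.427) alone. Xbp1 was at 309, 331 and 304 CPM (adherent) and 152, 149.5 and 151 CPM (ULA) in sgNTC, and at 312, 333 and 319.8 CPM (adherent) and 192, 190.4 and 199 CPM (ULA) in Ifngr1-KO libraries. Atf6 was at 637, 606 and 670.2 CPM (adherent) and 314, 320 and 332 CPM (ULA) in sgNTC, and at 477, 459 and 462 CPM (adherent) and 277, 303 and 282 CPM (ULA) in Ifngr1-KO libraries. Atf6 overlapped PBS in each of the 4 pairs of groups, whereas Xbp1 lay apart from PBS in ULA sgNTC cells (-0.069, adjusted p 0.617) alone. Ern1 was at 272, 241 and 286 CPM (adherent) and 117, 109.8 and 122 CPM (ULA) in sgNTC, and at 232, 236 and 219 CPM (adherent) and 101, 98.2 and 104 CPM (ULA) in Ifngr1-KO libraries. Hyou1 was at 1983, 1807 and 2108 CPM (adherent) and 158, 135 and 147 CPM (ULA) in sgNTC, and at 2365, 2192 and 2102 CPM (adherent) and 305, 268 and 311 CPM (ULA) in Ifngr1-KO libraries. Ern1 overlapped PBS in each of the 4 pairs of groups, whereas Hyou1 lay apart from PBS in ULA sgNTC cells (-0.165, adjusted p 0.226) alone. Creld2 was at 688, 716 and 710.3 CPM (adherent) and 29.96, 27.1 and 27.02 CPM (ULA) in sgNTC, and at 858, 815 and 786 CPM (adherent) and 66.2, 53.7 and 63.3 CPM (ULA) in Ifngr1-KO libraries. Sdf2l1 was at 303, 314 and 287 CPM (adherent) and 17.95, 15.9 and 18.7 CPM (ULA) in sgNTC, and at 397, 369 and 363 CPM (adherent) and 31.7, 23.3 and 32.95 CPM (ULA) in Ifngr1-KO libraries. The Creld2 and Sdf2l1 libraries overlapped those of PBS in each of the 4 pairs of groups.

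The remaining members follow in the same order. Herpud1 was at 807, 1012 and 924 CPM (adherent) and 52.6, 49.4 and 54.9 CPM (ULA) in sgNTC, and at 790.2, 823 and 826 CPM (adherent) and 81.5, 85.3 and 87.9 CPM (ULA) in Ifngr1-KO libraries. Pdia4 was at 1817, 1870.3 and 1989.5 CPM (adherent) and 169, 159.8 and 158 CPM (ULA) in sgNTC, and at 2015, 1911 and 1952 CPM (adherent) and 223, 224 and 221 CPM (ULA) in Ifngr1-KO libraries. Herpud1 overlapped PBS in each of the 4 pairs of groups, whereas Pdia4 lay apart from PBS in ULA Ifngr1-KO cells (0.068, adjusted p 0.813) alone. Hspa13 was at 122, 132 and 132 CPM (adherent) and 66.3, 57.3 and 57.4 CPM (ULA) in sgNTC, and at 158, 168 and 164 CPM (adherent) and 77.3, 80.99 and 78.1 CPM (ULA) in Ifngr1-KO libraries. Derl2 was at 123, 130.2 and 133 CPM (adherent) and 69.5, 65.4 and 65.5 CPM (ULA) in sgNTC, and at 151, 149 and 143 CPM (adherent) and 79.5, 78.2 and 89.5 CPM (ULA) in Ifngr1-KO libraries. Hspa13 lay apart from PBS in adherent Ifngr1-KO cells (-0.094, adjusted p 0.669), and Derl2 lay apart from PBS in adherent Ifngr1-KO cells (-0.146, adjusted p 0.523), and both overlapped PBS elsewhere. Ssr1 was at 316, 353 and 338 CPM (adherent) and 181, 190.2 and 193 CPM (ULA) in sgNTC, and at 397, 410.1 and 421 CPM (adherent) and 262, 271 and 266 CPM (ULA) in Ifngr1-KO libraries. Ssr2 was at 167, 174 and 157 CPM (adherent) and 65.5, 64.3 and 62.5 CPM (ULA) in sgNTC, and at 197, 204 and 201 CPM (adherent) and 103, 97.9 and 116 CPM (ULA) in Ifngr1-KO libraries. The Ssr1 and Ssr2 libraries overlapped those of PBS in each of the 4 pairs of groups. Spcs3 was at 279, 309.6 and 317 CPM (adherent) and 148, 153 and 152 CPM (ULA) in sgNTC, and at 211, 199.5 and 214 CPM (adherent) and 100.4, 118 and 113 CPM (ULA) in Ifngr1-KO libraries. Sec24d was at 155, 184 and 173 CPM (adherent) and 22.2, 21.8 and 23.7 CPM (ULA) in sgNTC, and at 206, 223 and 226 CPM (adherent) and 62.3, 65.6 and 52.6 CPM (ULA) in Ifngr1-KO libraries. Sec24d overlapped PBS in each of the 4 pairs of groups, whereas Spcs3 lay apart from PBS in adherent Ifngr1-KO cells (-0.163, adjusted p 0.445) alone.

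**Figure D5:**
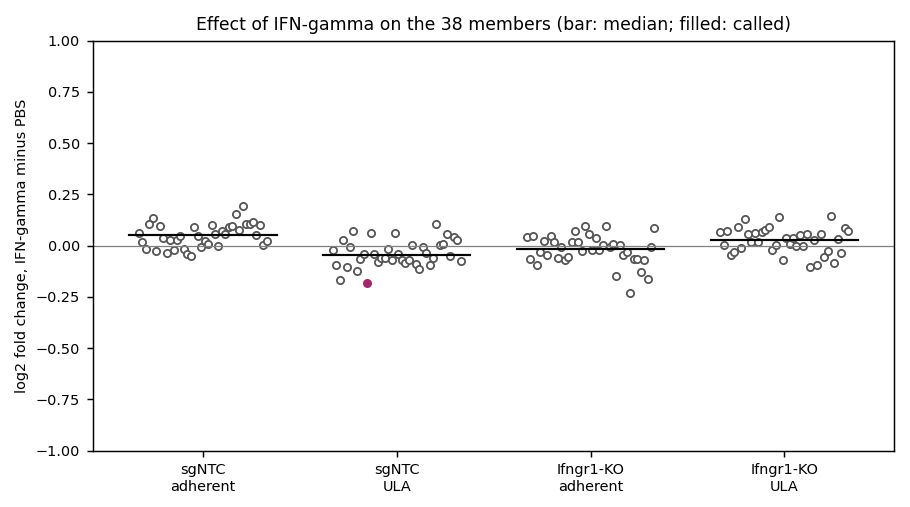
Log2 fold change of IFN-gamma against PBS for the 38 members in each line and culture; each point is a member in list order, bars are medians and the filled point is the called one. The values run from -0.231 to 0.196, and P4hb in ULA sgNTC cells is the filled point.

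The response to IFN-gamma was not shown to differ between cultures or lines. The interaction tests called 0 of 38 members for ULA minus adherent sgNTC cells (0.0479% of all genes), 0 for Ifngr1-KO minus sgNTC adherent cells (0.13%) and 0 for the same in ULA cells (1.33%). At an unadjusted p under 0.05 there were 5, 7 and 5 members in that order. The shares of all genes are for adjusted p, so these 3 counts have no background beside them. DESeq2 called 0, 0 and 1, the last being P4hb. In ULA cells 2 members, Creld2 and Hyou1, were called without both libraries that stood apart, and P4hb without library 1 of the ULA sgNTC PBS group. A p above the threshold does not show that the responses were equal.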

How the data were processed

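Poly-A RNA-seq counts per gene in 24 libraries were used as deposited. Per the file headers they came from featureCounts 2.1.1 on read pairs, with each mate counted, no use of strand and no multimapping reads, over exons of the mouse 10x mm10 annotation with added transgenes. The submitters' processing notes also name Trimmomatic, HISAT2, SAMtools, DESeq2 and the build GRCm38. From these counts edgeR 4.0.16 (R 4.3.3) gave a quasi-likelihood F test, with TMM factors of 0.958 to 1.05, genes kept by filterByExpr at a minimum count of 10, and a fit of 8 group means with 16 residual degrees of freedom. P-values were adjusted by Benjamini-Hochberg over all 14622 genes and called under 0.05; standard errors are the log2 fold change over the root of F. The script was tested on simulated data. CPM and RPKM were computed here from counts, with exon lengths from the files. Depth of 33494774 to 63154942 counts a library left all 38 members above the filter.

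All members could be named. Values in every library are given for Hspa5, Xbp1, Ern1, Atf6, and for the 4 called members with the largest change each way in comparisons of culture and line in PBS, at 10 CPM or more in 1 group, and for up to 4 called members by adjusted p in each IFN-gamma comparison and difference of effects. Of other pathway genes, the 2 called with the largest change each way in each PBS comparison of culture or line were named. The members, lists and tests were chosen with earlier results of these data known. The alternatives were other size factors, DESeq2 1.42.0, no filter, a replicate block, halved counts, the compared groups alone, each library left out, and, chosen after seeing the data, both outlying libraries left out and the IFN-gamma libraries in place of PBS. Ddit3 matched 2 identifiers and is not reported.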

Additional observations from a re-analysis of the deposited data

Results flagged for a closer look

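The effect of ULA culture differed between the lines, by the interaction test in PBS libraries, for 23 members. The values are the log2 fold change with ULA in Ifngr1-KO cells minus that in sgNTC cells, so a positive value is a smaller fall in Ifngr1-KO cells. Sec24d had the largest, at 0.98. Among chaperones and their partners Hspa5 stood at 0.79, Hyou1 at 0.65, Hsp90b1 at 0.62, Dnajb11 at 0.53, Calr at 0.48 and Canx at 0.38. The disulfide isomerases were Txndc11 at 0.39, Pdia6 at 0.35, Pdia3 at 0.29, P4hb at 0.26, Pdia4 at 0.19 and Txndc5 at 0.18. Creld2 stood at 0.75 and Manf at 0.50. In degradation Herpud1 was at 0.62, Sel1l at 0.42, Derl1 at 0.41 and Selenos at 0.24. Xbp1 was at 0.28 and Ern1 at 0.21. In translocation Ssr3 was at 0.35 and Sec61a1 at 0.20. Ern1 was not called in the IFN-gamma libraries, and the other 22 were. The calls of Ern1 and Txndc5 were each lost in 9 of the 12 fits that left out 1 library, that of Selenos in 8 and that of Pdia4 in 5. With library totals in place of TMM factors Ern1, Pdia4, Sec61a1, Selenos and Txndc5 were not called, and Spcs3 was called with the larger fall in Ifngr1-KO cells.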

How the results depend on the processing

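The fall of the members in suspension held for all 38 in both lines and treatments under each of the settings tried, except that 37 were called in Ifngr1-KO IFN-gamma libraries without library 3 of the ULA group. With single libraries left out, 18 to 25 members were called between the lines attached, 33 to 34 between the lines in suspension, and 19 to 22 for the difference in the effect of suspension. With library totals in place of TMM factors these counts were 29, 33 and 19. Of the last 19, 18 had the smaller fall in Ifngr1-KO cells and 1, Spcs3, the larger. For that difference the median was then 0.145 over the members and -0.082 over all genes. Under library totals the median log2 fold change of all genes moved from 0.047 to 0.164 for suspension in IFN-gamma-treated sgNTC cells. For IFN-gamma in ULA sgNTC cells 0 members were called with median-ratio size factors, 0 with the compared groups alone, 2 without the count filter, and 0 to 1 with single libraries left out. For the difference between the lines in the IFN-gamma effect, 1 was called without the count filter in adherent cells (Sec61b). In ULA cells 1 was called by DESeq2, 2 without the filter, 2 without both libraries that stood apart, and 0 to 1 with single libraries left out. The cause of these changes was not tested. Among 1213 repeats of named members' values, 0 reversed the sign of a value called in the main fit. The 1213 include repeats of values not called there, whose sign was not checked.

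The replicate numbers did not pair libraries: over 84 pairs of libraries with the same number the correlation of their deviations from group means ran from -0.061 to 0.06. With the replicate block 22 members were called for the difference in the effect of suspension, with Txndc5 lost, and the other counts were 38 for suspension in each line and treatment, 25 and 33 between the lines, and 0 or 1 for IFN-gamma. Depth limits no member, and 3 libraries a group limit the precision of differences near the threshold.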
